A study of Mus musculus with 35 samples.

Results

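*Hoxc4*, *Hoxc5*, *Hoxc6* and *Hoxc8* are neighbouring homeobox genes of the mouse *Hoxc* cluster, and their rows were taken by gene symbol from counts of 49671 genes in 35 RNA-seq libraries. All 4 passed the filter on low counts, as did 17166 genes in all. The cells were lin- HSPCs, blood stem and progenitor cells depleted of mature lineages, from the bone marrow of C57Bl/6 mice of both sexes, transduced with a lentivirus, sorted, and grown for 1 week in methylcellulose with 10 ng/mL GM-CSF, with 5 libraries for each of 7 conditions. Mice were 8 weeks old except for 2 empty vector libraries (9 and 10 weeks) and 1 G-NHX9 library (11 weeks). No other treatment is labelled, and every construct came from a viral vector, so its level was not that of the endogenous gene.

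The control, labelled Empty, carried the vector with an mCherry sort marker and no fusion, and cells with a construct were sorted for mCherry and mEGFP. G-NHX9 is mEGFP fused to NUP98-HOXA9 (NHA9), a leukemia fusion of the FG-repeat part of the nucleoporin NUP98 with the DNA-binding homeodomain part of HOXA9. In G-NHX9-8FA, phenylalanines of FG motifs were changed to alanine. In G-NHX9-21FGAA, a larger set of FG pairs was changed to alanine. G-NHX9-midi keeps only the C-terminal portion of the FG-repeat region, and G-NHX9-midi-21FGAA is the same portion with its FG pairs changed. G-NHX9-DDNA keeps all FG motifs and has a homeodomain mutated to weaken its binding to DNA.

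Hox proteins are transcription factors that give cells positional identity along the body axis. They bind DNA through the homeodomain, often with Pbx and Meis partners, and genes at one end of each cluster act in more anterior structures than genes at the other end. In blood, Hox genes of the *Hoxa* and *Hoxb* clusters are active in stem and progenitor cells and are silenced during maturation, and their sustained expression is a known feature of leukemias with NUP98 fusions.

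All 9 *Hoxc* genes lie on the plus strand of chromosome 15 (GRCm38), in the order *Hoxc13*, *Hoxc12*, *Hoxc11*, *Hoxc10*, *Hoxc9*, *Hoxc8*, *Hoxc6*, *Hoxc5*, *Hoxc4*. *Hoxc4* (ENSMUSG00000075394.4) was annotated in GENCODE M21 at chr15:103018934-103036852. *Hoxc6* (ENSMUSG00000001661.5) was annotated at chr15:102998257-103011881 and *Hoxc8* (ENSMUSG00000001657.7) at chr15:102990607-102994111. *Hoxc5* (ENSMUSG00000022485.3) was annotated at chr15:102967443-103017429, because a long processed transcript starts upstream of *Hoxc9* and spans *Hoxc9*, *Hoxc8* and *Hoxc6*, whereas its coding transcript begins at 103013815. That long transcript shared 166 exonic bases (5.4% of those of *Hoxc5*) with *Hoxc10*. The exons of *Hoxc4*, *Hoxc6* and *Hoxc8* shared no base with another gene.

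The homeobox is the most alike part of these genes, so the coding sequence of the DNA-recognition helix of *Hoxc4*, *Hoxc6* and *Hoxc8* is shown to compare them. The stretches were read from GENCODE M21 transcripts of the mouse genes, 5′ to 3′, and capitals mark bases that differ from *Hoxc6*.
Hoxc4: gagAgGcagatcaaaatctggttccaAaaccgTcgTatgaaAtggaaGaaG
Hoxc6: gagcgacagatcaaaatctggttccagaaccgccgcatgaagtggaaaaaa
Hoxc8: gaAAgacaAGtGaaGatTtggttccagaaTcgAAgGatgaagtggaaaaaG
*Hoxc8* differed from *Hoxc6* at 12 of these bases and *Hoxc4* at 8. Over the 180 bases of the homeobox, *Hoxc4* and *Hoxc6* had 70.6% identical bases, and *Hoxc6* and *Hoxc8* 67.8%. The longest run of identical bases between any pair of members was 20 bases (*Hoxc4* and *Hoxc6*). Whether reads of the members could be confused with those of other homeobox genes or of the constructs is not settled by this comparison.

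In G-NHX9 cells all 4 genes were on, and in empty vector cells none was above a few counts. *Hoxc6*, a gene of thoracic and limb patterning, had 556, 816, 504, 1026 and 976 counts in the 5 G-NHX9 libraries against 0, 3, 0, 2 and 0 in the empty vector libraries. Levels are given below as CPM as edgeR defines it, over the counts in tested genes and with TMM scaling, and 3 counts corresponded to between 0.0382 and 0.0996 CPM, depending on the library. *Hoxc6* reached 19.6 CPM ± 5.35 (SD, n = 5), and its log2 fold change of 9.41 (SE of 0.58, adjusted p = 5.9e-14) ranked 1 of the 17166 tested genes.

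*Hoxc4*, which lies at the anterior-acting end of the cluster, had 425, 591, 425, 545 and 492 counts in G-NHX9 libraries and 0, 2, 1, 1 and 0 in empty vector libraries. Its level of 12.6 CPM ± 0.615 (SD, n = 5) varied the least between libraries, and the log2 fold change was 9.06 (SE of 0.47, adjusted p = 7.1e-16), which ranked 2. *Hoxc5* had 209, 331, 245, 339 and 298 counts against 0, 3, 0, 0 and 0. With 3 counts in all empty vector libraries together, the summed counts of *Hoxc5* per CPM unit differed 461-fold, with an exact 95% interval from 157 to 2240 that covers counting error only. Its fitted log2 fold change was 8.62 (SE of 0.57, adjusted p = 2.8e-13), which ranked 4. With so few empty vector counts, the size and rank of the folds of *Hoxc4*, *Hoxc5* and *Hoxc6* depend on edgeR's prior count. With 1 library left out at a time, that of *Hoxc5* ranged from 8.30 to 11.35.

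*Hoxc8*, a regulator of skeletal and motor neuron patterning, was the lowest of the 4 in G-NHX9 cells and the highest in empty vector cells. It had 174, 185, 131, 115 and 160 counts against 1, 2, 5, 5 and 0. The level was 3.91 CPM ± 0.72 (SD, n = 5) against 0.0703, and the log2 fold change was 5.78 (SE of 0.53, adjusted p = 3.3e-10), which ranked 37. For each of the 4 genes, all 5 G-NHX9 libraries lay above every empty vector library. Thus 4 of 4 were called higher (edgeR's quasi-likelihood test, Benjamini-Hochberg adjusted p under 0.05), where 16.9% of all tested genes were called higher, and their median log2 fold change was 8.84 against 0.01 over all tested genes.

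**Figure D1:**
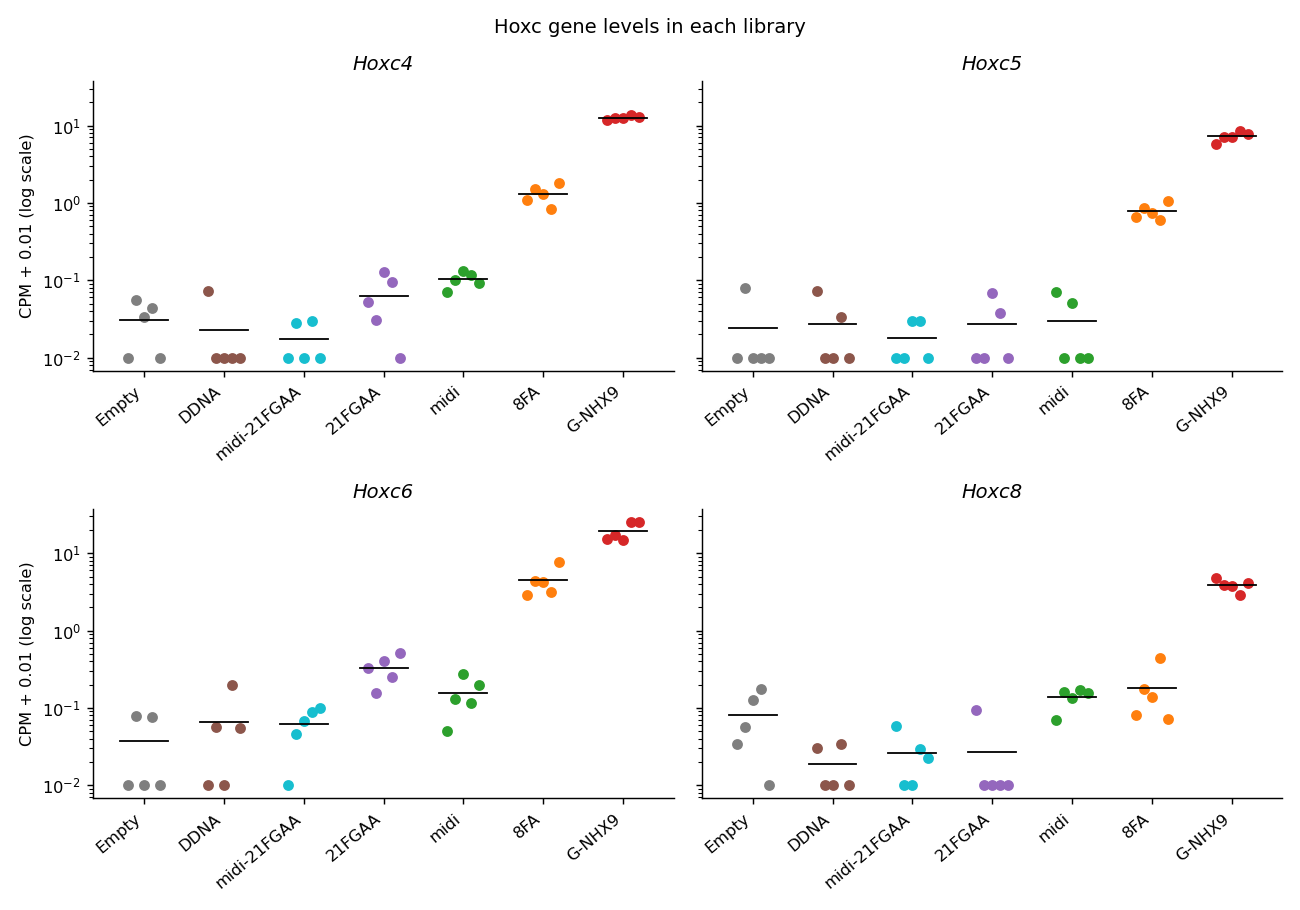
Level of each *Hoxc* gene (CPM plus 0.01, log axis) in each of the 5 libraries (points) of the 7 conditions, with the mean as a line. G-NHX9 libraries lie highest in all 4 panels, G-NHX9-8FA libraries follow for *Hoxc4*, *Hoxc5* and *Hoxc6*, and *Hoxc8* in G-NHX9-8FA libraries overlaps the empty vector libraries.

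Per kilobase of exon, the level in G-NHX9 cells fell in the order *Hoxc6*, *Hoxc4*, *Hoxc5*, *Hoxc8*. *Hoxc6* was at 8.15 CPM per kb ± 2.22 (SD, n = 5) and *Hoxc4* at 4.90 ± 0.239. *Hoxc5* was at 2.33 ± 0.311 and *Hoxc8* at 1.38 ± 0.254. The libraries of neighbours in this order did not overlap: the lowest *Hoxc6* library was at 6.07 and the highest *Hoxc4* library at 5.25, the lowest *Hoxc4* library at 4.6 and the highest *Hoxc5* library at 2.71, and the lowest *Hoxc5* library at 1.88 and the highest *Hoxc8* library at 1.71 CPM per kb. The same order of means held in G-NHX9-8FA cells, at 1.86, 0.505, 0.250 and 0.0608 CPM per kb. Lengths count every annotated exon base, which for *Hoxc8* is 2832 bases against 1868 in its coding transcript. The small gap between *Hoxc5* and *Hoxc8* libraries in G-NHX9 cells depends on that choice.

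The other 5 genes, *Hoxc9*, *Hoxc10*, *Hoxc11*, *Hoxc12* and *Hoxc13*, which pattern more posterior structures, did not pass the filter and were not tested. *Hoxc9*, the neighbour of *Hoxc8*, had between 2 and 7 counts in G-NHX9 libraries and between 0 and 3 in empty vector libraries. *Hoxc12* had 0 counts in every G-NHX9 library. *Hotair*, a long noncoding RNA transcribed against the cluster between *Hoxc12* and *Hoxc11*, had 0 counts in every G-NHX9 and empty vector library and at most 2 in any library of the series. The microRNA genes *Mir196a-2* and *Mir615* had 0 counts in all 35 libraries.

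**Figure D2:**
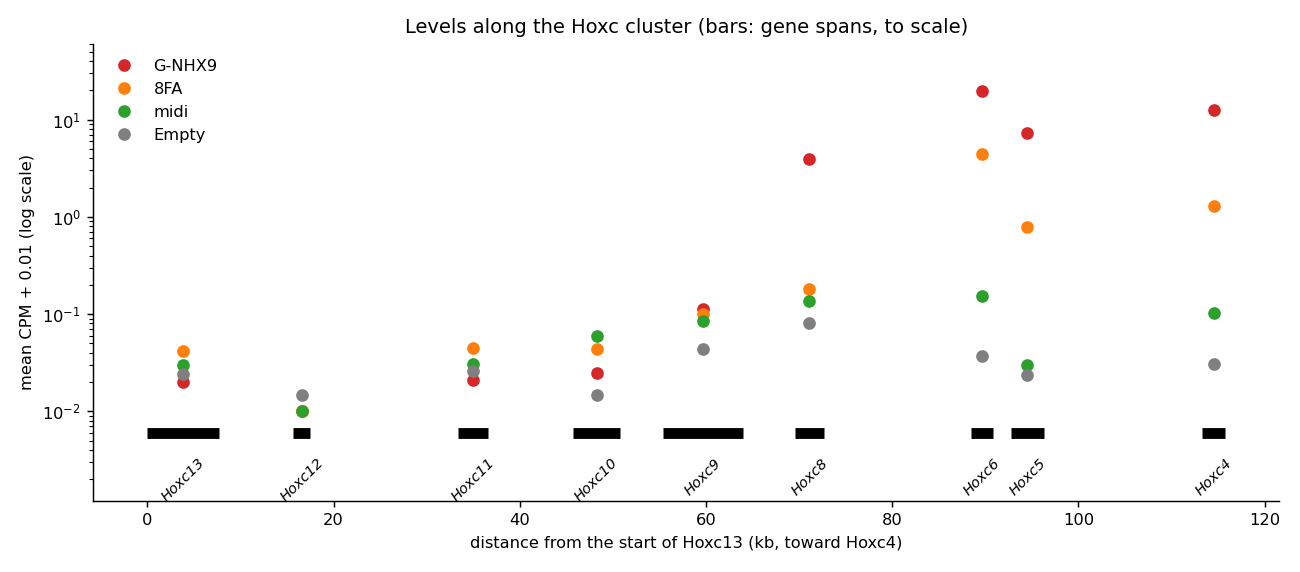
Mean level (CPM plus 0.01, log axis) of the 9 *Hoxc* genes against distance in kb from the start of *Hoxc13*, in G-NHX9, G-NHX9-8FA, G-NHX9-midi and empty vector cells (points), with gene spans as black bars drawn to scale. In G-NHX9 cells the 4 genes from *Hoxc8* (69.5 kb) to *Hoxc4* (113.3 kb) stand at 3.91 CPM or more, and the 5 genes on the *Hoxc13* side stay near the empty vector level.

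The tested genes flanking the cluster had smaller fold changes than the 4 members. On the *Hoxc4* side, 3 of 5 tested flanking genes were higher in G-NHX9 than in empty vector cells, beside 16.9% of all tested genes. These were *Cbx5* (log2 fold change 0.70, SE 0.14, adjusted p = 0.00033), which encodes the heterochromatin protein HP1 alpha, *Hnrnpa1* (0.80, SE 0.18, adjusted p = 0.00085) and *Nfe2* (0.47, SE 0.11, adjusted p = 0.0011). On the *Hoxc13* side, 4 flanking genes were tested and 0 passed by edgeR at the adjusted threshold. The nearest of these 10 genes, *Smug1*, lay 116438 bases from the cluster and had a log2 fold change of -0.04 (SE of 0.16, adjusted p = 0.88). The rise of the 3 genes was not particular to G-NHX9 cells. *Cbx5*, *Hnrnpa1* and *Nfe2* were also called higher than in empty vector cells in G-NHX9-21FGAA cells (log2 fold changes of 0.86, 0.61 and 0.42). Of these 3, *Cbx5* alone was called higher in G-NHX9-midi-21FGAA (0.59) and G-NHX9-DDNA cells (0.70), *Nfe2* alone in G-NHX9-8FA cells (0.44), and *Hnrnpa1* and *Nfe2* in G-NHX9-midi cells (0.82 and 0.44).

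The members were lower in G-NHX9-8FA than in G-NHX9 cells, to unequal degrees. *Hoxc6* was at 2.91, 4.41, 4.19, 3.18 and 7.67 CPM in the 5 G-NHX9-8FA libraries, all below the lowest G-NHX9 library (14.6 CPM). Its log2 fold change against G-NHX9 was -2.14 (SE of 0.34, adjusted p = 4.5e-05), and it was still 7.27 (SE of 0.59, adjusted p = 5.2e-11) above empty vector on the log2 scale. *Hoxc4* was at 1.10, 1.5, 1.29, 0.822 and 1.77 CPM and *Hoxc5* at 0.652, 0.842, 0.733, 0.591 and 1.04 CPM. Their log2 fold changes against G-NHX9 were -3.28 (SE of 0.30, adjusted p = 2.8e-09) and -3.22 (SE of 0.36, adjusted p = 1.2e-07), with no library overlapping. Against empty vector *Hoxc4* stood 5.78 higher on the log2 scale (SE of 0.49, adjusted p = 1.9e-10) and the summed counts of *Hoxc5* differed 48.8-fold (165 against 3 counts, exact 95% counting interval from 16.4 to 239).

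*Hoxc8* was at 0.0699, 0.165, 0.129, 0.437 and 0.0611 CPM in G-NHX9-8FA libraries, which is 3, 9, 6, 17 and 2 counts. Against G-NHX9 this was a log2 fold change of -4.48 (SE of 0.46, adjusted p = 2.9e-08). Against empty vector it was 1.30 (SE 0.62, 95% interval 0.03 to 2.57, adjusted p = 0.13), with only 1 of the 5 libraries above every empty vector library. *Hoxc8* did not pass the filter with only these conditions in the fit. It was tested against empty vector only because it was high in other conditions. So 3 of 4 members were higher in G-NHX9-8FA than in empty vector cells, beside 13.4% of all tested genes, and 4 of 4 were lower than in G-NHX9 cells, beside 8.04% of all tested genes. The median log2 fold changes of the 4 were 5.59 and -3.25, against 0.03 and 0.01 over all tested genes. Both of these comparisons use the same G-NHX9-8FA libraries, and several others share the empty vector or the G-NHX9 libraries.

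The proportions of the members within a library do not depend on how libraries are scaled. In G-NHX9 libraries the mean log2 ratio of *Hoxc4* to *Hoxc6* counts (0.5 added to each) was -0.60 ± 0.33 (SD, n = 5), and in G-NHX9-8FA libraries it was -1.74 ± 0.29. The difference of -1.14 gave p = 0.0079 in a two-sided exact permutation test, the smallest p that 5 against 5 libraries allow, and adjusted p = 0.014 over the 9 ratio tests. The ratio of *Hoxc5* to *Hoxc6* moved by -1.05 (exact permutation p = 0.0079, adjusted p = 0.014), and that of *Hoxc8* to *Hoxc6* by -2.54 (exact permutation p = 0.016, adjusted p = 0.024). As differences of medians these 3 kept their direction and did not pass (exact permutation tests, adjusted p = 0.071 for each). Many splits of 5 against 5 libraries share the same medians, so that test has a larger smallest p. After adjustment it could pass only if every ratio of the set reached that smallest p. Its failure therefore says nothing about single ratios. All 5 G-NHX9-8FA libraries lay below every G-NHX9 library for the first pair of ratios and 4 of 5 for the third. *Hoxc6* therefore made up 66.0% of the summed member counts in G-NHX9-8FA cells and 45.4% in G-NHX9 cells, while the share of *Hoxc8* was 2.61% and 8.95%.

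**Figure D3:**
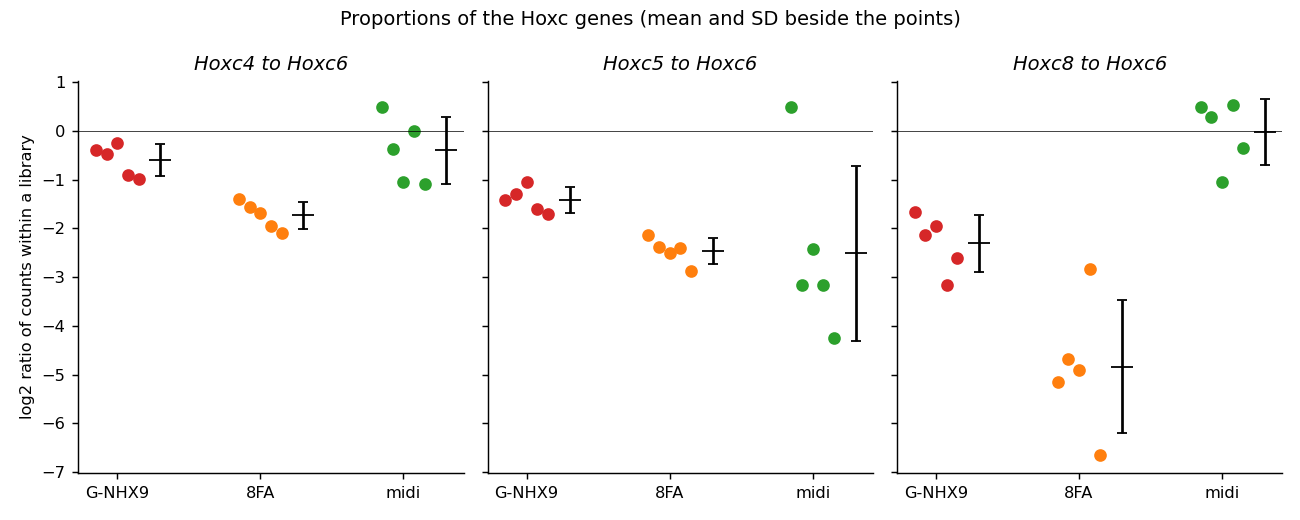
Log2 ratio of the counts of *Hoxc4*, *Hoxc5* and *Hoxc8* to those of *Hoxc6* in each library (points) of G-NHX9, G-NHX9-8FA and G-NHX9-midi cells, with the mean and SD beside them (n = 5 each). All 3 ratios are lower in G-NHX9-8FA than in G-NHX9 cells on average, and the ratio of *Hoxc8* is highest in G-NHX9-midi cells.

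In G-NHX9-midi cells, the 4 genes were near the level of empty vector cells. *Hoxc4* had 3, 3, 6, 4 and 4 counts (0.0598, 0.0900, 0.123, 0.107 and 0.0824 CPM), and all 5 libraries lay above the highest empty vector library (0.0459 CPM). *Hoxc6* had 2, 4, 13, 4 and 9 counts, and 4 of 5 libraries lay above every empty vector library. These were the 2 members called higher than in empty vector cells, with log2 fold changes of 2.00 (SE of 0.69, adjusted p = 0.020) and 2.36 (SE of 0.83, adjusted p = 0.022), where 20.5% of all tested genes were called higher. With only these conditions in the fit, 0 of 4 members passed the filter on low counts, so both were tested only because they were high in other conditions. Without the 3 libraries from mice aged 9 to 11 weeks, neither was called (adjusted p = 0.081 and 0.057). Leaving out empty vector replicate 1 or 5 likewise ended both calls, while leaving out empty vector replicate 3 or G-NHX9-midi replicate 3 ended that of *Hoxc6*.

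*Hoxc5* had 3, 0, 2, 0 and 0 counts and *Hoxc8* 3, 5, 6, 6 and 7 counts in G-NHX9-midi libraries. For *Hoxc5*, both conditions stood at no more than 3 counts in every library and no fold is given here. *Hoxc8* was 0.85 above empty vector on the log2 scale (SE 0.65, 95% interval -0.48 to 2.17, adjusted p = 0.32). Compared with G-NHX9 cells all 4 members were lower, beside 11.2% of all tested genes, with log2 fold changes from -8.15 (SE of 0.53, adjusted p = 1.0e-12) for *Hoxc5* to -4.94 (SE of 0.48, adjusted p = 3.8e-09) for *Hoxc8*. *Hoxc4* and *Hoxc6* lay between these, at -7.06 (SE of 0.39) and -7.05 (SE of 0.47). The 4 ranked between 4 and 20 from the lowest of the 17166 tested genes, and their median was -7.06 against 0 over all tested genes.

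G-NHX9-midi and G-NHX9-8FA cells differed little over the genome, with 2.74% of tested genes lower in the former. The *Hoxc* genes were among those that did: *Hoxc5*, *Hoxc6* and *Hoxc4* ranked 2, 3 and 6 from the lowest. *Hoxc6* differed by a log2 fold change of -4.91 (SE of 0.45, adjusted p = 1.5e-08), *Hoxc5* by -4.92 (SE of 0.57, adjusted p = 7.8e-07) and *Hoxc4* by -3.78 (SE of 0.38, adjusted p = 6.9e-08), each with all 5 libraries below every G-NHX9-8FA library. *Hoxc8* did not pass, at -0.45 (SE 0.55, 95% interval -1.58 to 0.67, adjusted p = 0.78). With only these conditions in the fit it did not pass the filter, so it was tested only because it was high in other conditions. Within libraries, the log2 ratio of *Hoxc8* to *Hoxc6* was -0.02 ± 0.68 (SD, n = 5) in G-NHX9-midi cells and -4.84 ± 1.37 in G-NHX9-8FA cells (exact permutation p = 0.0079, adjusted p = 0.014), with all 5 libraries of one above all of the other. The G-NHX9-midi ratio rests on between 3 and 7 counts of *Hoxc8* and between 2 and 13 of *Hoxc6* per library. Both genes were near the empty vector level there, so it does not compare conditions in which both genes were clearly on. Of the 9 ratio tests, 6 passed. As differences of medians 0 did (adjusted p = 0.071 for each of the 6 in exact permutation tests), under the limit of that test given above. The 3 that did not pass were *Hoxc4* to *Hoxc6* between G-NHX9-midi and G-NHX9 (exact permutation p = 0.55, adjusted p = 0.62) and *Hoxc5* to *Hoxc6* between G-NHX9-midi and either G-NHX9 (exact permutation p = 0.24, adjusted p = 0.31) or G-NHX9-8FA (exact permutation p = 0.97, adjusted p = 0.97).

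In G-NHX9-21FGAA cells *Hoxc6* was the member still measurable. It had 15, 7, 20, 17 and 21 counts, and all 5 libraries, from 0.145 to 0.501 CPM, lay above every empty vector library. The log2 fold change was 3.45 (SE of 0.72, adjusted p = 0.00063), and it was the 1 member of 4 called higher, beside 14.7% of all tested genes. With only these conditions in the fit 0 of 4 members passed the filter, so each, *Hoxc6* and *Hoxc8* included, was tested only because it was high in other conditions. *Hoxc4* had 2, 1, 6, 6 and 0 counts (log2 fold change 1.33, SE 0.73, adjusted p = 0.18), *Hoxc5* 0, 0, 3, 2 and 0, and *Hoxc8* 4, 0, 0, 0 and 0. *Hoxc8* was at -1.95 on the log2 scale (SE of 0.89, adjusted p = 0.10). Without G-NHX9-21FGAA replicate 1, which holds all 4 *Hoxc8* counts, *Hoxc8* passed as lower than in empty vector cells, with 0 counts in each of the other 4 libraries.

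All 4 members were lower in G-NHX9-21FGAA than in G-NHX9 cells, beside 8.34% of all tested genes, with log2 fold changes from -8.37 (*Hoxc5*, SE 0.53) to -5.95 (*Hoxc6*, SE 0.43). All 4 were also lower than in G-NHX9-8FA cells, beside 17.1% of tested genes, by log2 fold changes from -5.14 (*Hoxc5*) to -3.25 (*Hoxc8*). Of these, *Hoxc8* did not pass the filter with only these conditions in the fit, so it was tested only because it was high in other conditions. Compared with G-NHX9-midi cells, 1 member passed as lower, beside 18.1% of tested genes: *Hoxc8*, with a log2 fold change of -2.80 (SE of 0.79, adjusted p = 0.0054) on the few counts above, which did not pass the filter with only these conditions in the fit. *Hoxc6* was 1.09 higher than in G-NHX9-midi cells on the log2 scale (SE 0.51, 95% interval 0.06 to 2.13, adjusted p = 0.093), with 3 of 5 libraries above every G-NHX9-midi library. It passed without G-NHX9-midi replicate 3, at 1.46, and with DESeq2 (adjusted p = 0.029).

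In G-NHX9-midi-21FGAA and G-NHX9-DDNA cells the members were at background. Across the 5 libraries of G-NHX9-midi-21FGAA cells *Hoxc4* had 2 counts in all, *Hoxc5* 2, *Hoxc6* 16 and *Hoxc8* 4. Against empty vector 0 of 4 members passed edgeR's adjusted threshold or that of DESeq2, 1 (*Hoxc8*) had an unadjusted p under 0.05, and 16.9% of all tested genes were called in either direction. Against G-NHX9-midi cells, *Hoxc4* (20 counts in all against 2) and *Hoxc8* (27 against 4) were lower, with adjusted p = 0.00064 and 0.0032, beside 22.2% of tested genes. With only the compared conditions in the fit, 0 of 4 members passed the filter against empty vector or against G-NHX9-midi. Each member was thus tested in both comparisons only because it was high in other conditions. For *Hoxc4* the ratio of summed counts was 12.7, with an exact 95% counting interval from 3.08 to 112. *Hoxc6*, with a log2 fold change of -1.32 (SE of 0.65, adjusted p = 0.10), passed with DESeq2 (adjusted p = 0.036).

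In G-NHX9-DDNA cells, which keep the FG motifs, *Hoxc4* had 3, 0, 0, 0 and 0 counts, *Hoxc5* 3, 0, 0, 1 and 0, *Hoxc6* 0, 2, 0, 8 and 2, and *Hoxc8* 1, 0, 0, 1 and 0. The empty vector libraries held as many or more of each gene except *Hoxc5* and *Hoxc6*. By edgeR 0 of 4 members differed from empty vector, where 17.2% of all tested genes did. *Hoxc8* alone had an unadjusted p under 0.05 (log2 fold change -2.62, SE 1.00, adjusted p = 0.068), and it passed with DESeq2 (adjusted p = 0.033) and without empty vector replicate 1 or 5. With only these conditions in the fit 0 of 4 members passed the filter, and DESeq2 was run on the same filtered genes. *Hoxc8* was therefore tested against empty vector only because it was high in other conditions. Against G-NHX9 cells all 4 members were lower, beside 11.4% of tested genes, and *Hoxc4* was the gene with the lowest log2 fold change of all. For *Hoxc4*, 3 counts stood against 2478, a ratio of 952 with an exact 95% counting interval from 325 to 4620.

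**Figure D4:**
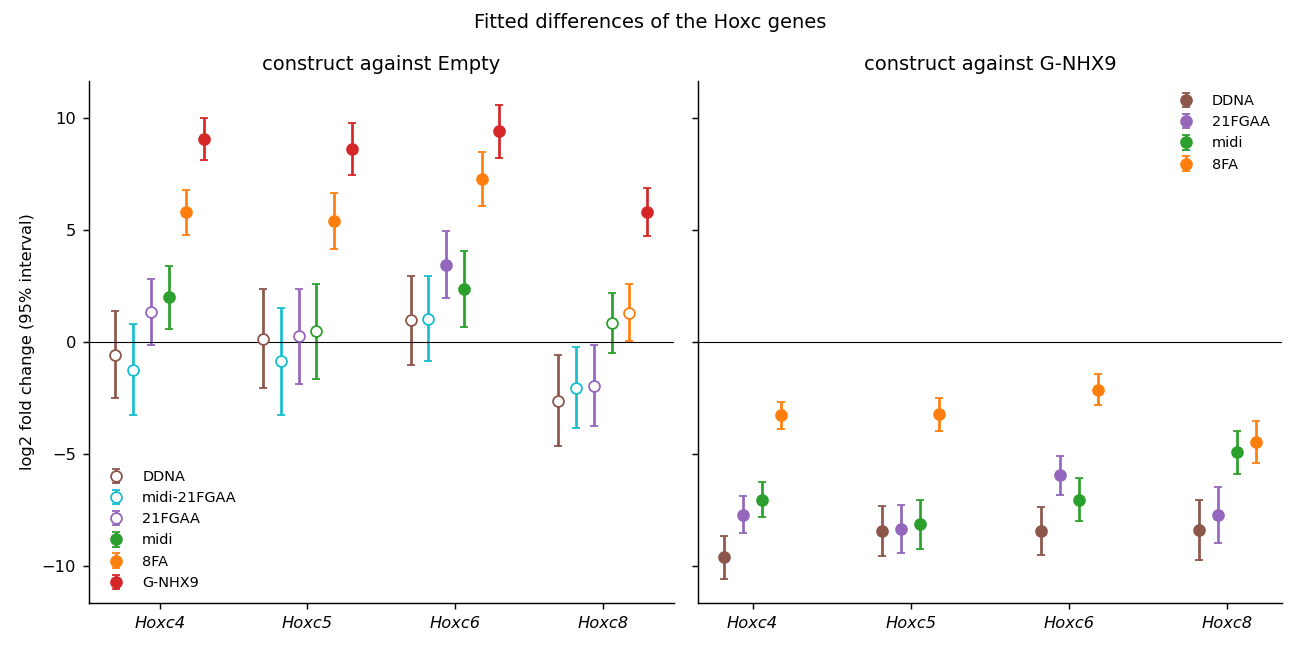
Fitted log2 fold change with its 95% interval of the 4 *Hoxc* genes in each construct against empty vector (left) and against G-NHX9 (right). Filled points passed the adjusted threshold and open points did not: G-NHX9 and G-NHX9-8FA stand apart from the other constructs for *Hoxc4*, *Hoxc5* and *Hoxc6*, and against G-NHX9 every point is filled and below 0.

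Summed over the 4 genes, the level was 43.3 CPM ± 6.28 (SD, n = 5) in G-NHX9 cells and 6.71 ± 2.32 in G-NHX9-8FA cells, which is 15.5% of the former. It was 0.407 ± 0.156 CPM in G-NHX9-21FGAA and 0.384 ± 0.119 in G-NHX9-midi cells, or 0.939% and 0.886%, and these 2 ranges of libraries overlapped (0.166 to 0.568 and 0.219 to 0.552 CPM). Empty vector cells were at 0.132 ± 0.119 CPM, G-NHX9-DDNA cells at 0.0948 ± 0.0958 and G-NHX9-midi-21FGAA cells at 0.0842 ± 0.0368. The libraries of the last 3 conditions overlapped one another. The members were among the most variable genes of the series: over the 7 condition means the SD on the log2 CPM scale was 3.19 for *Hoxc6* (rank 6 of 17166), 3.03 for *Hoxc4* (rank 8), 2.80 for *Hoxc5* (rank 18) and 2.19 for *Hoxc8* (rank 87), against a median of 0.24. In these bulk libraries, fewer expressing cells and less RNA per cell cannot be told apart.

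Each member has paralogs, the genes of the same group number in other clusters, and of the 9 listed 7 were tested. All 7 were higher in G-NHX9 than in empty vector cells, with a median log2 fold change of 6.09. In G-NHX9-8FA cells 4 of the 7 were lower than in G-NHX9 cells (median -0.77), and in G-NHX9-midi cells 6 of the 7 (median -1.37), and they were split by gene. *Hoxa5* was at 5.27 CPM there, 12.1 in G-NHX9 and 0.180 in empty vector cells, and *Hoxa6* was at 1.00, 2.59 and 0.0327 CPM. *Hoxb4*, expressed in every condition compared here, was at 5.83, 7.43 and 3.73 CPM. Against these, *Hoxb5* was at 0.0446 CPM in G-NHX9-midi, 2.71 in G-NHX9 and 0.0250 in empty vector cells, *Hoxb6* at 0.0136, 5.07 and 0.0153, and *Hoxb8* at 0.0806, 3.64 and 0.0759.

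*Hoxa4* and *Hoxb5* share 255 and 100 exonic bases with a gene on the other strand, and as the strand setting of the counting is not given, their values are uncertain to that extent. The differences between a member and its paralogs were tested as ratios within libraries, in 14 tests chosen after the values above were seen. Relative to *Hoxa5*, *Hoxc5* was lower on the log2 scale in G-NHX9-8FA and in G-NHX9-midi than in G-NHX9 cells (differences of -2.47 and -7.05, exact permutation p = 0.0079, adjusted p = 0.011 for each). Relative to *Hoxa6*, *Hoxc6* moved by -1.41 and -5.78 (exact permutation p = 0.0079, adjusted p = 0.011 for each). The ratios of *Hoxc4* to *Hoxa4* (-2.84 and -6.08) and to *Hoxb4* (-3.27 and -6.61) fell with the same p. In all 8 of these tests, all 5 libraries lay below every G-NHX9 library. As differences of medians none of the 8 passed (exact permutation tests, adjusted p = 0.061 for each). That test could pass only if all 14 ratios reached its smallest p, so its failure says nothing about these 8.

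Relative to the *Hoxb* genes of groups 5, 6 and 8 the members did not fall in this way. In G-NHX9-8FA cells the ratio of *Hoxc5* to *Hoxb5* differed by -0.07 (SE 0.36, exact permutation p = 0.86, adjusted p = 0.86). That of *Hoxc6* to *Hoxb6* was 4.04 higher (SE 0.63, exact permutation p = 0.0079, adjusted p = 0.011) and that of *Hoxc8* to *Hoxb8* 1.39 higher (SE 0.39, exact permutation p = 0.024, adjusted p = 0.030). In G-NHX9-midi cells, where both genes of each pair had few counts, *Hoxc5* to *Hoxb5* was lower (a difference of -2.47, exact permutation p = 0.0079, adjusted p = 0.011), and the other 2 ratios did not pass (adjusted p = 0.13 and 0.45).

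**Figure D5:**
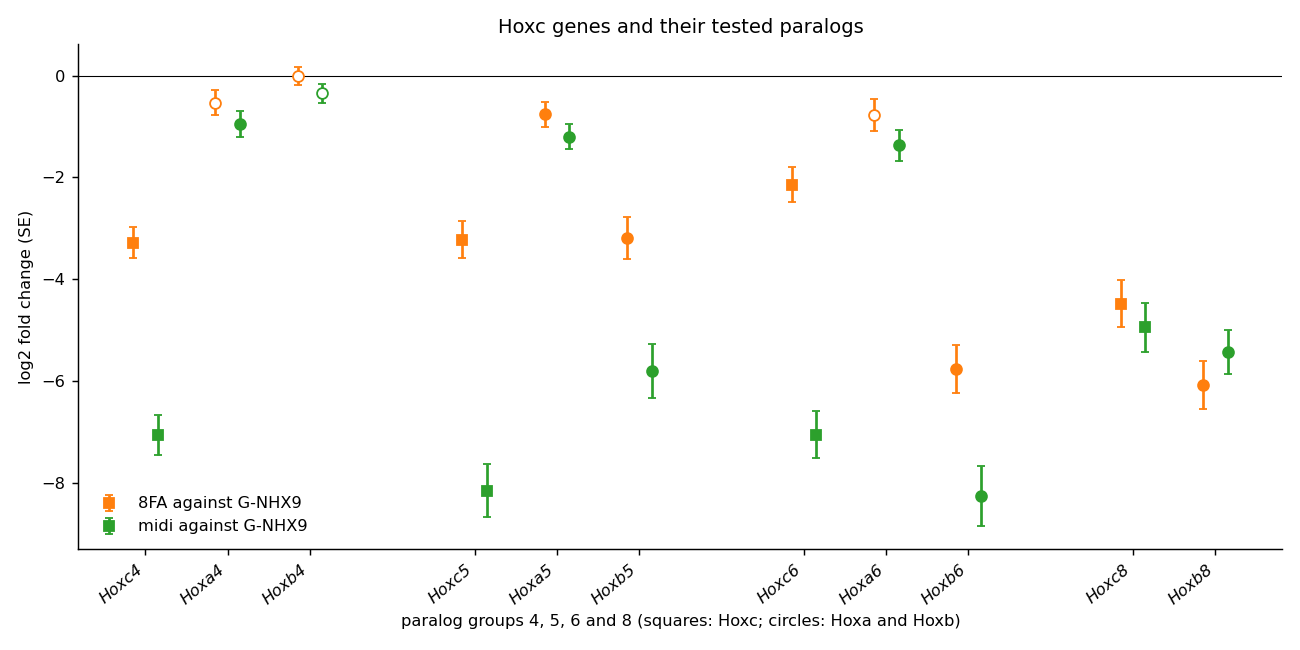
Log2 fold change with its SE of each *Hoxc* gene (squares) and its tested *Hoxa* and *Hoxb* paralogs (circles) in G-NHX9-8FA and G-NHX9-midi cells against G-NHX9 cells, by paralog group. Filled symbols passed the adjusted threshold. *Hoxa4*, *Hoxa5*, *Hoxa6* and *Hoxb4* lie between -1.37 and -0.01, and the *Hoxc* genes, *Hoxb5*, *Hoxb6* and *Hoxb8* lie at -2.14 or below.

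By root mean square difference of centred log2 CPM over the 7 condition means, the gene most like *Hoxc4* was *Hoxc5* (0.43), followed by *Hoxc6* (0.65) and *Hoxb5* (0.93). *Hoxc5* was closest to *Hoxc4*, *Hoxb5* (0.72) and *Mybpc1* (0.77), a myosin-binding protein gene on chromosome 10. *Hoxc6* was closest to *Hoxc4*, *Hoxc5* (0.83) and *Hoxb5* (1.29). *Hoxc8* was closest not to a cluster neighbour but to its paralog *Hoxb8* on chromosome 11 (0.36), then to *Ssxb10* on chromosome X (0.56) and *Hoxb5* (0.58). *Hoxb8* averaged 3.64 CPM in G-NHX9 and 0.0509 CPM in G-NHX9-8FA cells, and *Hoxc8* 3.91 and 0.172 CPM.

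Matches to the seeds of microRNAs encoded in the cluster were looked up in the 3′ untranslated parts of the members. Their relation to the levels above was not tested. miR-196a, encoded in the cluster by *Mir196a-2* (its 5p strand at chr15:102973365-102973386, GRCm38.p6), is a microRNA known to target *Hox8* group transcripts, and its mature RefSeq sequence is shown with the seed, bases 2 to 8, in capitals.
miR-196a-5p: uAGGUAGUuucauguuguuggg
Hoxc8 site: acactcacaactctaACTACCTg
The 3′ untranslated part of the annotated coding *Hoxc8* transcript held 2 matches to the seed (ACTACCT on the RNA strand), of which the first is shown, and those of *Hoxc4*, *Hoxc5* and *Hoxc6* held 0. Of the last 966 bases of 40555 coding transcripts, 4.9% held 1 or more such matches and 0.2% held 2 or more. For miR-615-5p, encoded in the cluster by *Mir615*, *Hoxc6* held 1 seed match and the other members held none. The 3p strands of both microRNAs had no match in any member. Mature microRNAs were not measured in these libraries, so nothing follows here for their activity.

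Of the 9 Pbx, Meis and Pknox genes, whose proteins bind DNA together with Hox proteins, 8 were tested. *Pbx3* had 63.2 CPM in G-NHX9, 8.74 in G-NHX9-8FA, 7.91 in G-NHX9-midi and 6.43 in empty vector cells. In G-NHX9 cells it exceeded empty vector by 3.30 on the log2 scale (SE of 0.15, adjusted p = 2.7e-17). *Meis1* rose by 1.41 (SE of 0.18, adjusted p = 2.2e-07) in G-NHX9 cells and was at 11.3 CPM in G-NHX9-8FA against 13.7 in empty vector cells. *Pbx4* also rose, and *Pbx2* and *Meis3* fell.

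As a check of the labels, *Hoxa9* reads, which can come from the endogenous gene and from the construct, averaged 96.6 CPM in G-NHX9, 33.8 in G-NHX9-8FA, 34.6 in G-NHX9-midi, 18.9 in G-NHX9-DDNA, 3.28 in G-NHX9-21FGAA, 1.12 in G-NHX9-midi-21FGAA and 0.975 in empty vector cells. Construct levels could therefore not be read from this gene. *Hoxa9* reads did not separate G-NHX9-midi-21FGAA from empty vector cells (log2 fold change 0.16, SE 0.39, adjusted p = 0.82). Reads of *Nup98* did not either (0.08, SE 0.12, adjusted p = 0.69), so that label was not checked by these genes. Levels of cell type markers also differed between conditions. In bulk libraries a change in the cell mixture cannot be told apart from a change per cell. Summed stem and progenitor markers (9 genes) ranged from 379 to 484 CPM in G-NHX9 and from 218 to 307 in empty vector libraries, with 5 of 9 markers higher and 1 lower. They ranged from 195 to 271 CPM in G-NHX9-8FA, from 149 to 244 in G-NHX9-midi and from 496 to 800 in G-NHX9-21FGAA libraries. Against empty vector, 3 of these 9 markers were higher and 2 lower in G-NHX9-8FA cells. In G-NHX9-midi cells 3 were higher and 3 lower, and in G-NHX9-21FGAA cells 6 were higher and 0 lower. Summed mast cell and basophil markers (8 genes) ranged from 445 to 716 CPM in G-NHX9 and from 1070 to 3350 in empty vector libraries, with 7 of 8 markers lower. Erythroid markers (8 genes) ranged from 23.6 to 70.2 CPM in G-NHX9-8FA, from 41 to 77.2 in G-NHX9-midi and from 171 to 442 in G-NHX9 libraries. The part of these shifts in the *Hoxc* differences was not tested.

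Stromal cells, which express *Hoxc* genes in many tissues, were checked with 8 markers. Their sum ranged from 52.7 to 74.9 CPM in G-NHX9 and from 5.17 to 8.94 CPM in empty vector libraries. *Lepr* (54.2 CPM against 3.68) and *Pdgfrb* (8.60 against 0.882) were the 2 markers that were higher, and *Pdgfra* was lower. *Col1a1* was at 0.320 CPM in G-NHX9 and 0.298 in empty vector cells, and *Col3a1*, *Cxcl12* and *Prrx1* had at most 3 counts in any G-NHX9 library. *Lepr* was at 14.0 CPM in G-NHX9-8FA and 14.2 CPM in G-NHX9-midi cells. The part of *Lepr*-expressing cells in the *Hoxc* differences was not tested.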

How the data were processed

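The authors deposited read counts per gene, whole numbers without normalization, for 35 libraries. The submitters' processing notes name STAR 2.7.0d, HTSeq 0.11.2, DESeq2 and mm10. Libraries were stranded total RNA. The annotation and the strand setting of the counting are not given in the sources used here. Library totals ranged from 31559914 to 75810659 counts, and no 2 libraries of a condition agreed within sampling noise.

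Counts were tested with edgeR 4.0.16 in R 4.3.3. Genes were kept with filterByExpr by condition, libraries scaled by TMM, and one quasi-likelihood model with a mean per condition fitted to all libraries, with Benjamini-Hochberg adjustment over 17166 genes and a threshold of 0.05. There were 14 comparisons. Fold changes of genes near 0 depend on edgeR's prior count. Intervals from counts cover counting error only. Ratios were tested with exact permutation tests (scipy), two-sided. Gene positions, transcripts and overlaps came from GENCODE M21, which held 88.1% of identifiers with the same version. The test was checked on simulated counts. Members, gene lists, markers and tests were chosen with earlier results of these data known, and the genes named are the members, the rest of the cluster, flanking genes, paralogs, cofactors, markers and the 3 genes closest in pattern.

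Labels do not say whether libraries came from separate cultures or mice, so p-values measure the spread between these libraries. Replicate numbers are shared between conditions, and no source used here says what a number marks. All 5 same-numbered pairs correlated above 0.1 in 5 of the 14 comparisons (G-NHX9, G-NHX9-midi-21FGAA and G-NHX9-DDNA against Empty, and G-NHX9-21FGAA and G-NHX9-DDNA against G-NHX9), and there the numbers were taken to pair the libraries. All values come from the fit without a block, and the fit with it is an alternative. A few results on cofactors, markers and sequences are not reported here.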

Additional observations from a re-analysis of the deposited data

Results flagged for a closer look

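Among 44 sets of 5 libraries (the level of a member, the sum of the 4, or a ratio to *Hoxc6*, in 1 condition), 5 held a library whose gap to the next, divided by the whole range, exceeded Dixon's critical value for 5 samples (0.71). Chance flags about 1 in 20 such sets. In 4 of the 5 the library held few counts. *Hoxc4* was at 0.062 CPM (3 counts) in G-NHX9-DDNA replicate 1 and at 0 counts in the other libraries of that condition. *Hoxc5* was at 0.0689 CPM (3 counts) in empty vector replicate 2 and at 0 in the rest. *Hoxc8* was at 0.0851 CPM (4 counts) in G-NHX9-21FGAA replicate 1 and at 0 in the rest. *Hoxc6* was at 0.19 CPM (8 counts) in G-NHX9-DDNA replicate 4. *Hoxc8* in G-NHX9-8FA replicate 4 stood at 0.436 CPM (17 counts), where the other 4 libraries had between 2 and 9 counts, and without that library the log2 difference in *Hoxc8* between G-NHX9-midi and G-NHX9-8FA cells turned from -0.45 to 0.18, with neither value past the threshold.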

How the results depend on the processing

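Of 229 counts of members called under alternatives, 217 stayed within 1.5 times the main count, 875 of 910 member fold changes kept their call and direction, and 35 of 35 levels moved by less than 1 SD. Of ratios to *Hoxc6*, 95 of 108 kept their call and direction, 6 lost the call, 6 reversed and 1 gained a call. Of ratios to paralogs 145 of 168 kept them, 18 lost the call, 4 reversed and 1 gained a call. DESeq2 called 1 member in G-NHX9-DDNA against Empty (main 0) and 2 in G-NHX9-21FGAA against G-NHX9-midi (main 1). Without the 3 libraries from mice aged 9 to 11 weeks, G-NHX9-midi against Empty gave 0 (main 2), and *Hoxc5*, at the floor throughout, turned to -0.05 in G-NHX9-midi, -0.24 in G-NHX9-21FGAA and -0.35 in G-NHX9-DDNA against Empty. With only the compared conditions in the fit, G-NHX9-21FGAA against G-NHX9-midi gave 0, since only *Hoxc6* then passed the filter. G-NHX9-midi, G-NHX9-21FGAA, G-NHX9-midi-21FGAA and G-NHX9-DDNA against Empty, and G-NHX9-midi-21FGAA against G-NHX9-midi, gave no value there because no member passed it.

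Leaving out 1 library, the count ranged from 0 to 2 in G-NHX9-midi against Empty (0 without Empty replicate 1 or 5), from 1 to 2 in G-NHX9-21FGAA against Empty (2 without G-NHX9-21FGAA replicate 1), from 0 to 1 in G-NHX9-DDNA against Empty (1 without Empty replicate 1 or 5) and from 1 to 2 in G-NHX9-21FGAA against G-NHX9-midi (2 without G-NHX9-midi replicate 3). Log2 fold changes of *Hoxc5* against Empty ranged from -0.33 to 3.20 (G-NHX9-midi), -0.59 to 3 (G-NHX9-21FGAA), -1.34 to 1.87 (G-NHX9-midi-21FGAA) and -1.13 to 2.89 (G-NHX9-DDNA), the upper ends all without Empty replicate 2, where *Hoxc5* in Empty is 0 and the fitted value depends on the prior count, and from -1.06 to 0.59 between G-NHX9-21FGAA and G-NHX9-midi. *Hoxc6* in G-NHX9-DDNA against Empty ranged from -0.24 to 1.78, and *Hoxc8* in G-NHX9-midi against G-NHX9-8FA from -0.65 to 0.18.

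As differences of medians, the ratios to *Hoxc6* kept their direction but lost the call (adjusted p = 0.071 each, exact permutation tests): *Hoxc4* -1.22 and *Hoxc5* -1 in G-NHX9-8FA against G-NHX9, *Hoxc8* -2.77 there, *Hoxc4* 1.32 and *Hoxc8* 5.19 in G-NHX9-midi against G-NHX9-8FA, and *Hoxc8* 2.43 in G-NHX9-midi against G-NHX9. The median test could pass only if every ratio of a set reached its smallest p, here and for paralogs. Calls lost under it say nothing about single ratios. With a pseudocount of 2, *Hoxc5* to *Hoxc6* between G-NHX9-midi and G-NHX9-8FA turned to 0.96 and *Hoxc6* to *Hoxb6* between G-NHX9-midi and G-NHX9 to -0.37. As medians, *Hoxc5* to *Hoxb5* in G-NHX9-8FA turned to 0.04, and every ratio to a paralog that had passed lost the call (adjusted p = 0.061 each, exact permutation tests). Without single libraries, *Hoxc4* to *Hoxc6* between G-NHX9-midi and G-NHX9 (-0.02 to 0.37) stayed past no threshold. The same held for *Hoxc5* to *Hoxc6* between G-NHX9-midi and G-NHX9-8FA (-0.80 to 0.38) and *Hoxc5* to *Hoxb5* in G-NHX9-8FA (-0.23 to 0.21). *Hoxc5* to *Hoxc6* between G-NHX9-midi and G-NHX9 ranged from -1.84 to -0.66 and gained a call without G-NHX9-midi replicate 1, where *Hoxc5* had 3 counts. The cause of the changes outside the median tests was not tested.

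A fit that blocked on replicate number changed the count of members called in none of the 14 comparisons: it was 4, 3, 2 and 1 for G-NHX9, G-NHX9-8FA, G-NHX9-midi and G-NHX9-21FGAA against Empty and 4 for each of the 4 comparisons with G-NHX9. In comparisons where the numbers did not pair the libraries, the lowest same-number correlation lay between -0.15 and 0.03 and between 4 and 8 of 10 libraries correlated best with their own number. Over all genes, calls in G-NHX9-8FA against G-NHX9 went from 2484 to 3952 with the block and to 1559 with only those conditions in the fit, and in G-NHX9-midi against G-NHX9-8FA from 729 to 1314 with the block. At this depth, differences among conditions with 3 counts or fewer in every library were not detectable.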

Other observations

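*Hoxc6* kept 4.47 CPM in G-NHX9-8FA cells where *Hoxb6* kept 0.0873 CPM, although both were raised in G-NHX9 cells (19.6 and 5.07 CPM). In G-NHX9-21FGAA cells, where *Hoxc6* was at 0.319 CPM, *Hoxa5* was at 1.41 CPM and *Hoxb6* at 0.0423 CPM. *Meis1* was at 31.7 CPM in G-NHX9-21FGAA cells, against 36.3 CPM in G-NHX9 and 11.8 CPM in G-NHX9-midi cells, so that the order of the conditions by *Meis1* differed from their order by any of the 4 *Hoxc* genes. No test was run on these orders.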
